A study of Rattus norvegicus with 12 samples.

Results

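The RNA polymerase subunits and general transcription factors were read through 81 cDNA clones of 60 genes on nylon arrays of rat hippocampal cultures. They were taken by name, as every spot with a single gene symbol starting with POLR1, POLR2, POLR3, GTF2, GTF3 or SUPT, or with TAF or MED followed by a digit. The arrays held 8496 clones of 6284 genes with a single symbol. Pol I was represented by 9 clones of 6 genes, Pol II by 15 of 10, Pol III by 10 of 6, TFIIA and TFIIF by 5 of 3, TFIIH by 5 of 3, the TFII-I family by 2 of 2, TFIIIC by 5 of 3, the TAFs by 11 of 10, Mediator by 18 of 16, and the SUPT genes by SUPT4H1 alone. The largest subunits of Pol I, POLR1A and POLR1B, were among them, whereas POLR2A, POLR2B, POLR3A and POLR3B, TBP-associated TAF1, GTF2B and the Mediator scaffold MED14 were not analysed here. Of the 81 clones, 15 lay in the dimmest 25% of named clones and are called dim below.

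Pol I makes the precursor of the large ribosomal RNAs, Pol II makes messenger RNA, and Pol III makes transfer RNA and 5S ribosomal RNA. At a Pol II promoter the TAFs and TBP form TFIID, TFIIA and TFIIF help to seat the polymerase, TFIIH opens the DNA and phosphorylates the polymerase tail, and Mediator passes signals from activators. Actinomycin D (ActD) binds DNA and stops elongating polymerases, so transcripts that are lost under it are those that decay. In neurons synaptic activity is known to call on this machinery within minutes for the immediate early genes.

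Cultures of hippocampal neurons from Sprague Dawley embryos of day 18.5 were grown for 12 days on a glial feeder layer and first silenced for 3 h with Block, a mixture of glutamate receptor blockers (D-APV at 50 µM for NMDA receptors, CNQX at 40 µM for AMPA receptors) and the sodium channel toxin TTX (100 nM). They were then stimulated with 50 µM bicuculline and 500 µM 4-aminopyridine (BiC/4AP), which releases synaptic firing, or stayed in Block, and each arm was run with 25 µM ActD and without it. RNA was taken at 5, 30 and 60 min, so that 12 arrays covered 12 conditions with 1 array each. The labels give treatments of 5, 30 and 60 min, whereas the methods describe a stimulus of 5 min followed by harvest at once or later, so a time may mean either. The sources also differ on whether an array held RNA of 3 coverslips or of several experiments. All arrays carry the same replicate number, and the spread in the tests is the disagreement between single arrays of different arms and times.

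The arrays grew brighter with time, with medians over all spots of 24.5 to 31.8 raw units at 5 min, 37.4 to 58.5 at 30 min and 53.5 to 69.8 at 60 min. Each time is 1 run of consecutive array numbers, so time and array order cannot be told apart. Within a time, both Block arrays come before both BiC/4AP arrays at 30 and at 60 min, and both arrays with ActD before both without at 5 min, so activity at 30 and 60 min and ActD at 5 min cannot be told apart from array order either. Of the 81 clones, 71 lay on all 12 arrays above a limit set by the blank spots (their 95th percentile). That limit was exactly 10 on all 5 min arrays and on all 30 min arrays except BiC/4AP without ActD. An exact 10, treated as a placeholder, was read on at least 1 array by 232 spots. Of the 81 clones 1 was among them, POLR3D clone 3, which read 0.26 to 10. Where 1 accession had been spotted more than once, the spots did not track each other. Over 141 such pairs of named spots the Spearman correlation of mean log2 intensity was -0.02, and over the 110 pairs outside the dimmest 25% the difference between 60 and 5 min had the same sign in 49.1%. Gene names here are those of the platform annotation, and some may be wrong for the clone on the spot, which was not tested. Of the neuronal markers 6 of 9 measured genes lay above the dimmest 25% (SNAP25, STMN2, GAP43 and TUBB3 among them), of the astrocyte markers 4 of 5, of the microglial markers 5 of 5, of the oligodendrocyte markers 3 of 3 and of the fibroblast and vascular markers 3 of 5. GRIA2, a defining glutamate receptor subunit, exceeded the blank spots on 1 of 12 arrays. Levels below are log2 intensities rescaled to a common mean and SD on every array, so a change is relative to the other spots. The 4 values at a time are given in the order BiC/4AP + ActD, BiC/4AP, Block + ActD, Block. In RNA of a whole culture, fewer cells of a type and less RNA per cell cannot be told apart.

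The first comparison asks whether transcripts of the machinery differ when transcription is stopped. Over all times no clone of the machinery passed in either direction with ActD (limma, 0 of 81, smallest adjusted p = 0.985), and none of 9600 spots did (0%). At an unadjusted p under 0.05 stood 2 of the 81 clones and 225 of all spots. The median difference with ActD was -0.04 over the 81 clones and -0.004 over all named clones. Of the 81 clones 33 lay above 0 (40.7%), beside 49.2% of all named clones. The median SE of a clone was 0.14 on the log2 scale, and differences ran from -0.41 for the dim POLR2M clone to 0.61 for the dim POLR3D clone 3. Neither end of that range differed from 0 by more than 2 SE.

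**Figure D1:**
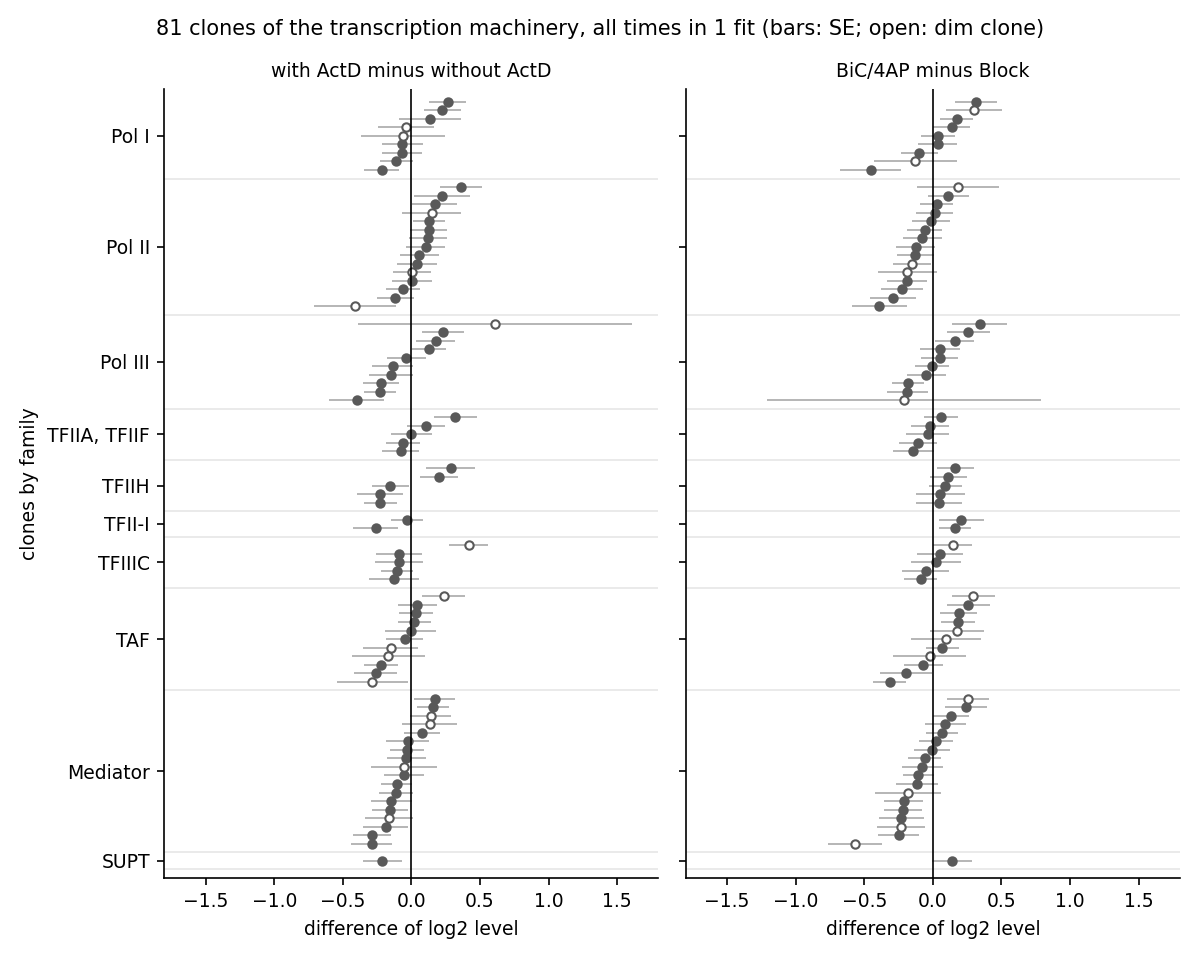
Difference of log2 level with ActD against without (left) and BiC/4AP against Block (right) for each of the 81 clones, sorted within family, with bars of 1 SE and open circles for dim clones. No clone passed an adjusted p of 0.05 in either panel, and the dim POLR3D clone 3 has the widest bars in both.

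POLR2K, a small zinc-binding subunit that all the nuclear polymerases share, had the smallest p among the brighter clones that were higher with ActD. Its clone 1 had log2 levels of 4.93, 5.28 and 5.45 (lowest, median, highest of 6 arrays) with ActD and of 4.22, 5.01 and 5.21 without. The groups overlapped, and the difference was 0.36 ± 0.15 (SE, limma, adjusted p = 0.985). It was higher with ActD in 5 of 6 pairs of arrays, and the lowest array of the clone was the 30 min BiC/4AP array at 4.22. The larger TFIIF subunit GTF2F1, which helps Pol II reach the promoter, differed by 0.32 ± 0.16 at its clone 1 and by -0.08 ± 0.14 at its clone 2. POLR1H, the small Pol I subunit that takes part in RNA cleavage, differed by 0.26 ± 0.14.

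On the lower side POLR3D clone 4, for a part of Pol III that resembles TFIIF, had 7.50, 8.16 and 8.60 with ActD and 7.97, 8.53 and 9.45 without (lowest, median, highest of 6), a difference of -0.40 ± 0.20. MED15, a Mediator tail subunit that contacts activators, had log2 levels of 4.90, 5.44 and 6.02 with ActD and of 5.46, 5.76 and 6.0 without. The arrays without ActD lay within the range of those with it, and the difference was -0.29 ± 0.14. POLR3C clone 2 stood at 5.62, 5.84 and 5.93 with ActD and at 5.49, 6.07 and 6.37 without, a difference of -0.23 ± 0.12. Both pairs of ranges overlapped. TAF6L, a TAF6 relative found in SAGA-type acetyltransferase complexes, was lower with ActD in 6 of 6 pairs, by -0.06 to -0.48, and its fitted difference was -0.22 ± 0.12. The dim GTF3C2 clone 1, for a subunit of the Pol III factor TFIIIC, was higher with ActD in 6 of 6 pairs, with a fitted difference of 0.42 ± 0.14. With 1 array left out, the difference ran from 0.22 to 0.43 for POLR2K clone 1, 0.20 to 0.42 for GTF2F1 clone 1, -0.36 to -0.19 for MED15 and -0.55 to -0.22 for POLR3D clone 4. TAF6L and GTF3C2 clone 1 were 1 of 81 clones on each side, beside 1.24% of named clones that were lower and 1.2% that were higher in all 6 pairs.

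The catalytic Pol I subunits gave differences of opposite sign with ActD. POLR1A had levels of 4.74, 5.07 and 5.64 with ActD and of 4.72, 4.82 and 5.12 without, a difference of 0.23 ± 0.13. POLR1B had 4.55, 5.12 and 5.27 with ActD and 5.12, 5.24 and 5.34 without, a difference of -0.22 ± 0.13. Neither passed the test. By family, the median difference was highest in Pol II, at 0.10 with 12 of 15 clones above 0, and lowest, apart from SUPT4H1 at -0.21, in TFIIH, at -0.16 with 2 of 5 above 0. Of all named clones 49.2% were above 0 with ActD. For single pairs of arrays the Pol II median ran from -0.07 to 0.32. Of the 7 clones of subunits shared by all the nuclear polymerases (POLR2E, POLR2F, POLR2H, POLR2K and POLR2L), 6 were above 0 with ActD, and none of them was called.

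Within single times, with 2 arrays against 2, no clone passed for ActD at 5, 30 or 60 min (0 of 81 each, 0% of all spots each), and 3, 10 and 6 of the 81 clones stood at an unadjusted p under 0.05, beside 291, 1255 and 448 of 9600 spots. The smallest p of the family was at 30 min, where POLR2D clone 2, for a subunit of the Pol II stalk, differed by 1.09 with an adjusted p of 0.333. Its other clone differed by 0.17 ± 0.17 over all times, against 0.22 ± 0.20 for clone 2. With the 30 min Block array left out, 5 of the 81 clones passed for ActD at 30 min, where 8.48% of all spots did.

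The second comparison asks whether synaptic activity altered the machinery. Over all times no clone passed for BiC/4AP against Block (limma, 0 of 81, smallest adjusted p = 0.781), and no spot of the array did (0%). The count at an unadjusted p under 0.05 was 2 of the 81 clones and 448 of all spots. The median difference was -0.006 over the 81 clones, with 40 of them above 0 (49.4%), and -0.01 over all named clones, with 46.95% above 0. Under each of the other scalings the median of the 81 clones lay on the other side of 0, between 0.005 and 0.03.

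TAF6, a histone-fold subunit of TFIID, was the brighter clone with the smallest p in this comparison. It had log2 levels of 5.23, 5.36 and 5.62 in BiC/4AP and of 5.52, 5.65 and 5.90 in Block (lowest, median, highest of 6 arrays). The ranges overlapped only between 5.52 and 5.62, and BiC/4AP was the lower array in 6 of 6 pairs. The fitted difference was -0.32 ± 0.12, which did not pass after adjustment (adjusted p = 0.781). At 30 min with ActD the pair differed by -0.0008, whereas at 5 min the pairs differed by -0.58 with ActD and -0.46 without.

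MED21 (dim), a subunit of the Mediator middle module, was lower in BiC/4AP in 6 of 6 pairs as well, at 3.19, 3.71 and 4.31 in BiC/4AP and 3.77, 4.34 and 4.59 in Block, with a difference of -0.57 ± 0.20. POLR3C clone 2, for a Pol III subunit that takes part in initiation, was the only other clone below 0 in all pairs, with a difference of -0.18 ± 0.12. These 3 of 81 clones stand beside 1.75% of named clones that were lower in every pair. No clone of the machinery was higher in every pair, beside 1.82% of named clones.

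Among clones higher in BiC/4AP, POLR1C, a subunit that Pol I and Pol III share, had levels of 9.17, 9.87 and 10.32 in BiC/4AP and of 9.21, 9.38 and 10 in Block. The difference was 0.32 ± 0.15, higher in 5 of 6 pairs. POLR3GL, 1 of the alternative forms of a Pol III initiation subunit, differed by 0.26 ± 0.16. The other subunit shared by Pol I and Pol III, POLR1D, differed by -0.45 ± 0.22 at its clone 3, by 0.03 ± 0.14 at its clone 1 and by -0.13 at its dim clone 2. With print block and position removed, clone 1 turned to -0.07 and clone 2 to 0.007. The clone 3 value rested on the 30 min BiC/4AP array, at 4.57 against a range of 5.93 to 6.29 on the other BiC/4AP arrays. Leaving out 1 array at a time moved it between -0.64 and -0.19. POLR2D clone 2 differed by -0.39 ± 0.20, at 5.22, 6.12 and 6.77 in BiC/4AP and 5.93, 6.60 and 6.81 in Block. With 1 array left out it ran from -0.60 to -0.22, and POLR1C from 0.19 to 0.40, POLR3GL from 0.16 to 0.33.

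By family the median for activity was -0.12 in Pol II, with 4 of 15 clones above 0, and -0.09 in Mediator, with 6 of 18 above 0. Over all named clones 46.95% were above 0. The TFIIH clones were all 5 above 0, with a median of 0.09, and both TFII-I clones were above 0. GTF2I, a signal-responsive factor that also acts at promoters outside the basal machinery, had levels of 6.20, 6.76 and 7.74 in BiC/4AP and of 5.90, 6.70 and 6.95 in Block, a difference of 0.21 ± 0.16. Its highest array was the 30 min BiC/4AP array. SUPT4H1, the small subunit of the elongation factor DSIF, differed by 0.14 ± 0.14. None of these passed.

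The study's own measure for single pairs is the z-fold, in which the gap between a BiC/4AP array and its Block array is scaled by the SD of such gaps over the whole array. A clone is co-regulated where both z-folds, with ActD and without, pass 1.4 on one side. The rule itself carries no test. At 5 min no clone of the machinery was co-regulated, beside 0.573% of all spots higher and 0.625% lower. At 30 min 1 of 81 was higher and 0 were lower, beside 0.771% and 0.448% of all spots. At 60 min none was, beside 1% higher and 0.604% lower. The dim POLR3D clone 3 passed 1.4 in opposite directions without and with ActD at both 5 and 30 min, and it exceeded the blank spots on none of the 12 arrays.

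The co-regulated clone was POLR3D clone 4, the TFIIF-like subunit of Pol III. At 30 min it had log2 levels of 8.60 with ActD and 9.45 without in BiC/4AP, and of 7.50 with ActD and 8.43 without in Block. The z-folds were 2.10 with ActD and 1.51 without. At 5 min the same clone had z-folds of -0.31 with ActD and -0.56 without, and at 60 min of 0.86 and -0.08. The same accession had been spotted a second time as POLR3D clone 2. That spot had z-folds of 0.19 with ActD and -0.36 without at 30 min. The raw intensities of the spots also lay far apart, with means of 377 for clone 4 and 39.2 for clone 2 over the 12 arrays. Activity at 30 min differed by 1.06 in the fit for clone 4, with an adjusted p of 0.450, and no clone of the machinery passed within any time (0 of 81 at 5, 30 and 60 min, 0% of all spots each). At an unadjusted p under 0.05 stood 3, 8 and 5 of the clones, beside 461, 949 and 481 of 9600 spots. With the 30 min BiC/4AP + ActD array left out, 8 of the 81 clones passed for activity at 30 min, where 12.1% of all spots did. Under quantile normalization clone 4 was no longer co-regulated.

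**Figure D2:**
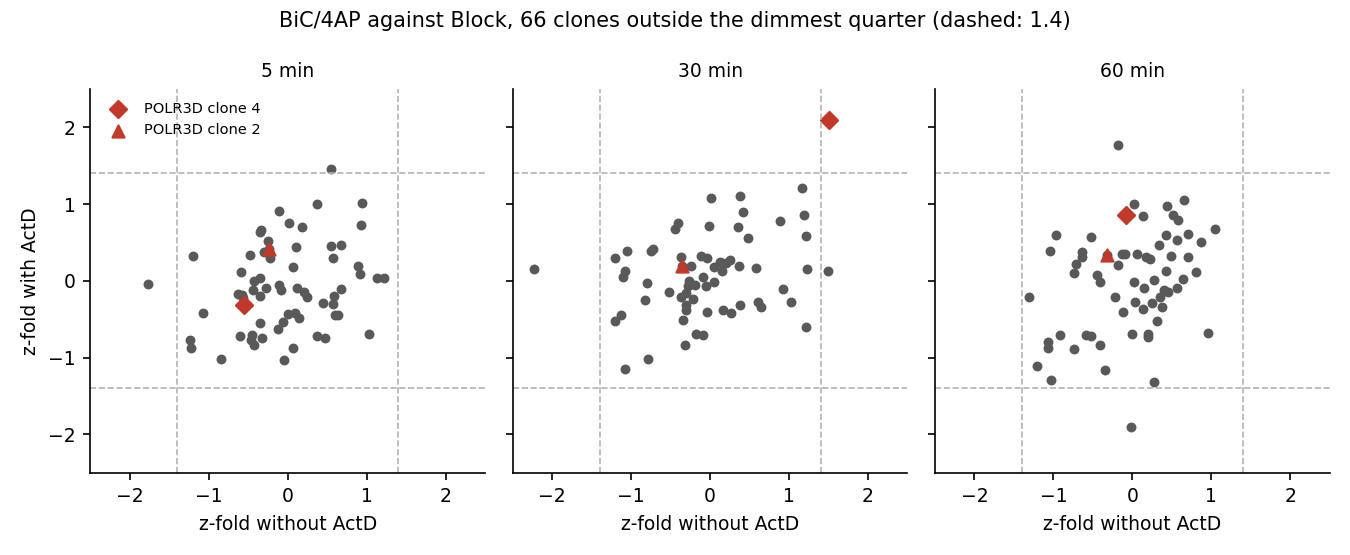
z-folds of BiC/4AP against Block with ActD (vertical axis) and without ActD (horizontal axis) at 5, 30 and 60 min, for the 66 clones outside the dimmest 25%, with dashed lines at 1.4 in either direction. POLR3D clone 4 is the only point past 1.4 on both axes in one direction, at 30 min, while clone 2 of the same accession stayed between -0.36 and 0.42.

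The interaction of activity with ActD, the activity difference with ActD minus that without, passed in no clone (limma, 0 of 81, smallest adjusted p = 0.999) and in no spot of the array (0%). At an unadjusted p under 0.05 stood 2 of the 81 clones and 248 of all spots. The lowest p among brighter clones were those of POLR3D clone 1 at 0.51, GTF2A2 clone 1 at 0.49 and POLR1D clone 3 at 0.78 on the higher side. On the lower side they were POLR1D clone 1 at -0.51, GTF3C6 at -0.56 and TAF12 at -0.48. With 1 array left out, POLR1D clone 3 ran from 0.29 to 1.06, GTF3C6 from -0.75 to -0.28 and TAF12 from -0.74 to -0.26.

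The third comparison is between times, over all 4 arms. Between 60 and 5 min, 9 of the 81 clones passed (11.1%), 6 of them higher and 3 lower at 60 min, where 19.6% of all spots passed, 9.14% higher and 10.4% lower. The median difference was 0.17 over the 81 clones, with 55 above 0 (67.9%), and 0.07 over all named clones, with 57.0% above 0. The share of named clones that passed grew with brightness, with 6.54%, 11.7%, 16.8% and 45.7% from the dimmest 25% to the brightest. In those 4 classes 1 of 15, 1 of 27, 2 of 24 and 5 of 15 clones of the machinery passed. Of the blank-position spots 4.17% passed. The part of brightness in the time differences was not tested.

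Some marker lists moved with time as well. For 60 min against 5 min, the median difference was -0.33 over the astrocyte clones (3 of 8 above 0, 1 called higher and 4 lower), -0.25 over the microglial clones (0 of 5 above 0, 1 called lower) and -0.04 over the neuronal clones (6 of 12 above 0, 0 called). It was 0.08 over the oligodendrocyte clones (3 of 6 above 0, 1 called higher and 1 lower) and 0.001 over the fibroblast and vascular clones (3 of 6 above 0, 1 called lower). The 8 astrocyte clones stand for 5 genes, with GLUL spotted repeatedly, and the 6 oligodendrocyte clones for 3, with CNP spotted repeatedly. In summed levels, where bright clones weigh most, the total over 5 microglial clones was 14140 to 16301 at 5 min, 8213 to 14168 at 30 min and 6155 to 9094 at 60 min, and that over 8 astrocyte clones was 509 to 616, 465 to 478 and 421 to 468. The sum over 12 neuronal clones was 585 to 766, 432 to 706 and 634 to 680. The 6 fibroblast and vascular clones summed to 4620 to 6482, 3069 to 4593 and 2230 to 3081, and the 6 oligodendrocyte clones to 1222 to 1419, 1311 to 2579 and 2095 to 2558. No measured marker was at 0. The part of these cells in the time differences was not tested.

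TAF11, a histone-fold subunit that pairs with TAF13 in TFIID, fell furthest. Its log2 levels were 6.56, 6.76, 6.54 and 6.15 on the 4 arrays of 5 min, 6.80, 6.84, 6.78 and 6.90 at 30 min, and 5.37, 5.47, 5.30 and 5.03 at 60 min. Every 60 min array lay below every earlier array. The difference of 60 min against 5 min was -1.21 ± 0.15 (limma, adjusted p = 3.99e-05), and against 30 min it was -1.53 ± 0.15 (adjusted p = 4.28e-06). Within the 60 min arrays the arms spanned 5.03 to 5.47, and 60 min was below 5 min in 4 of 4 arms. In raw units TAF11 read 50.9 to 58.5 at 60 min and 54.1 to 78.1 at 5 min, while the array medians were 53.5 to 69.8 and 24.5 to 31.8. TAF11 passed both comparisons in all 19 other settings tried.

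GTF3C2 clone 1 (dim), for a subunit of TFIIIC, which binds promoters of Pol III genes, also fell in both comparisons. It had 5.02, 5.01, 5.35 and 4.50 at 5 min, 5.04, 4.70, 4.95 and 4.66 at 30 min, and 4.30, 3.96, 4.18 and 3.53 at 60 min. All 60 min arrays were below all others. In raw units the clone read 17.3 to 26.3 at 5 min and 18.3 to 28.7 at 60 min, so this fall was relative to the other spots. The difference was -0.98 ± 0.17 for 60 min against 5 min (adjusted p = 9.49e-04) and -0.84 ± 0.17 against 30 min. The brighter clone 2 of the same gene had 5.34, 5.48, 5.81 and 5.71 at 5 min, 6.01, 6.07, 5.91 and 6.04 at 30 min, and 5.77, 6.03, 5.82 and 5.94 at 60 min, a difference of 0.30 ± 0.14 (adjusted p = 0.16) that became -0.16 once print block and position were removed.

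The other clone that fell was POLR2L clone 2, for a small subunit common to all the nuclear polymerases. It had 7.53, 7.78, 7.69 and 7.54 at 5 min, 7.08, 7.04, 7.27 and 6.94 at 30 min, and 7.06, 6.97, 7.13 and 6.72 at 60 min. The 5 min arrays stood above all later ones. In raw units the clone read 113.6 to 159.1 at 5 min and 159.7 to 180.5 at 60 min, so it fell only relative to the other spots. The difference was -0.66 ± 0.14 for 60 min against 5 min (adjusted p = 0.0044), and it turned to 0.24 with the medians of print block and position removed. Its clone 1 differed by -0.30 ± 0.16, also with 0 of 4 arms above 0.

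Of the clones that rose between 5 and 60 min, POLR1C had the smallest p. It had 9.43, 9.17, 9.21 and 9.34 at 5 min, 9.55, 10.24, 9.25 and 9.42 at 30 min, and 10.32, 10.19, 10 and 9.80 at 60 min. The 60 min arrays were all above the 5 min arrays, and at 30 min the BiC/4AP array without ActD stood alone near the 60 min level. The difference was 0.79 ± 0.18 (adjusted p = 0.0064), and it passed in all 19 other settings.

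Mediator gave 3 of the 6 clones that rose. MED29 had 7.96, 7.93, 8.07 and 8.12 at 5 min, 8.30, 8.53, 7.72 and 8.28 at 30 min, and 8.68, 8.73, 8.53 and 8.61 at 60 min, a difference of 0.61 ± 0.16 for 60 min against 5 min (adjusted p = 0.013). MED16, a tail subunit, had 5.54, 5.64, 5.62 and 5.53 at 5 min, 5.53, 5.58, 5.61 and 5.79 at 30 min, and 5.78, 6.17, 6.14 and 6.17 at 60 min, a difference of 0.48 ± 0.14 (adjusted p = 0.023). MED18, a head subunit, had 4.25, 4.45, 4.65 and 4.70 at 5 min, 4.89, 5.5, 4.79 and 5.66 at 30 min, and 5.30, 5.01, 5.00 and 5.30 at 60 min, a difference of 0.64 ± 0.19 (adjusted p = 0.023). In each of the 3 genes the 60 min arrays did not overlap with the 5 min arrays. Between 60 and 30 min MED16 differed by 0.44 ± 0.14 and MED29 by 0.43 ± 0.16, neither of which passed, whereas the MED18 levels at 30 min were already at 4.79 or above.

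SUPT4H1 rose by 0.54 ± 0.17 (adjusted p = 0.038), with 6.86, 7.28, 7.22 and 7.35 at 5 min, 7.32, 7.88, 6.92 and 7.28 at 30 min, and 7.86, 7.72, 7.69 and 7.63 at 60 min. POLR2C clone 2, for a Pol II core subunit, rose by 0.53 ± 0.18 (adjusted p = 0.048), with 6.57, 6.86, 6.98 and 7.19 at 5 min, 7.48, 7.21, 7.11 and 6.97 at 30 min, and 7.25, 7.10, 7.67 and 7.70 at 60 min. For POLR2C the lowest 60 min array lay below the highest 5 min array. Of these 6 clones, POLR1C alone passed whichever array was left out. Single arrays ended the call of MED29 (the 5 min BiC/4AP array), of MED16 (5 min Block and every 60 min array but BiC/4AP + ActD), of MED18 (5 min Block and both 5 min BiC/4AP arrays, and 60 min BiC/4AP + ActD), of SUPT4H1 (both 5 min BiC/4AP arrays and every 60 min array but BiC/4AP) and of POLR2C clone 2 (every 5 min array but Block, 30 min Block + ActD and every 60 min array but BiC/4AP). With each of the 12 arrays left out in turn the difference ran from 0.51 to 0.70 for MED29, 0.41 to 0.56 for MED16, 0.49 to 0.74 for MED18, 0.42 to 0.64 for SUPT4H1 and 0.43 to 0.63 for POLR2C clone 2. MED16, MED29 and SUPT4H1 also no longer passed under median centring or with print block and position removed, SUPT4H1 and POLR2C clone 2 without the intensity trend, POLR2C clone 2 under median centring, and MED18 under normexp.

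**Figure D3:**
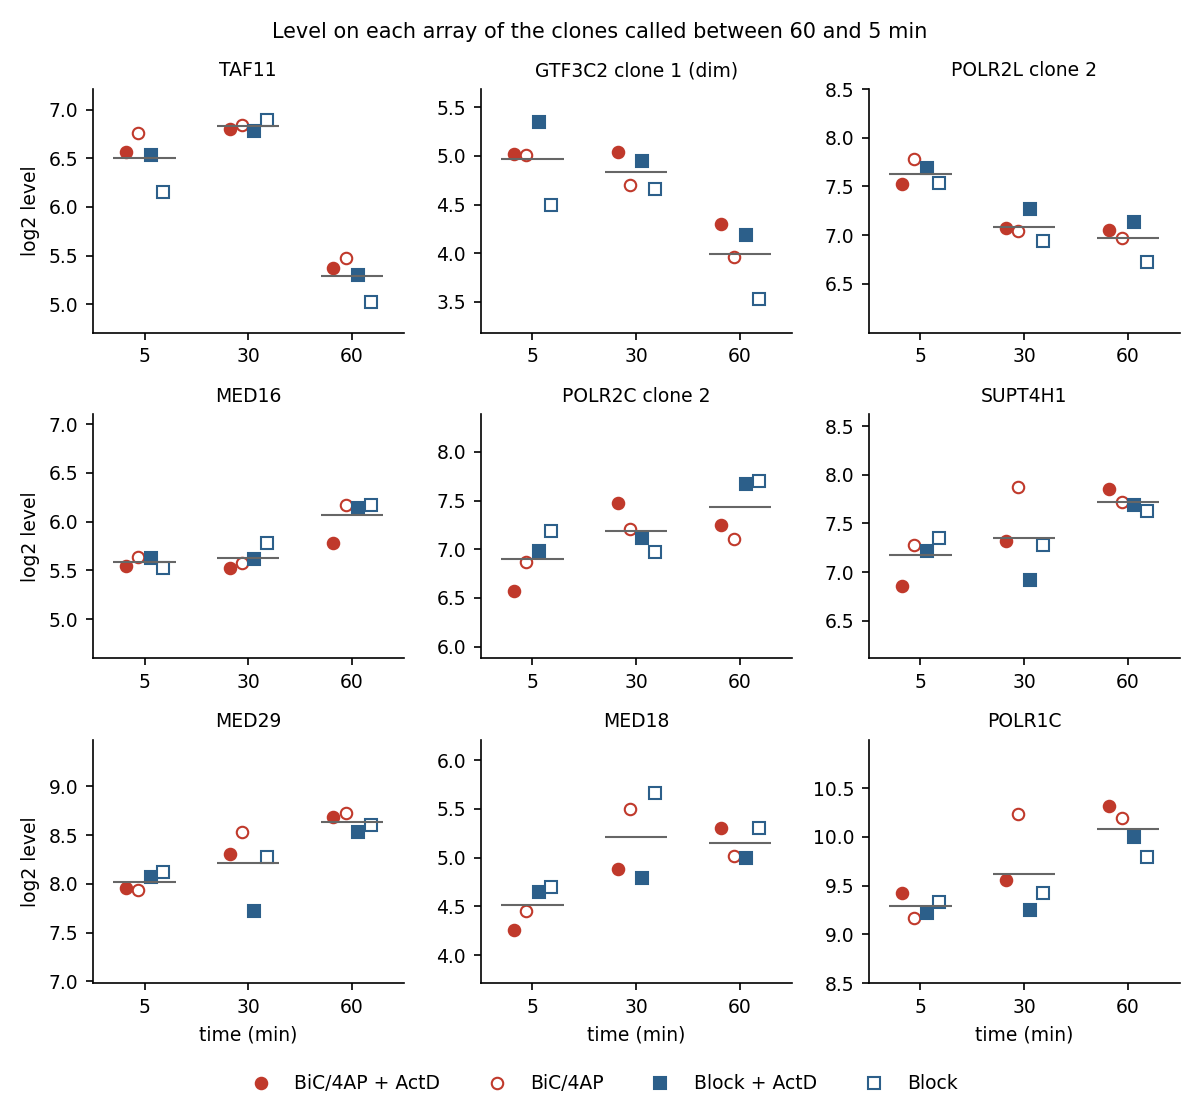
Log2 level (vertical axes, all spanning 2.5 units) on each of the 4 arrays of 5, 30 and 60 min for the 9 clones that passed between 60 and 5 min, with symbols for the 4 arms and a line at the mean of each time. TAF11 and GTF3C2 clone 1 are lowest on all 60 min arrays, POLR2L clone 2 is highest on all 5 min arrays, and the 6 clones that rose have their highest mean at 60 min except MED18, whose mean was highest at 30 min.

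Between 30 and 5 min no clone of the machinery passed (limma, 0 of 81, smallest adjusted p = 0.109), where 0.406% of all spots did, and 13 of 81 clones against 1456 of 9600 spots stood at an unadjusted p under 0.05. The median difference was 0.15 over the 81 clones, with 55 above 0 (67.9%), and 0.04 over all named clones, with 55.9% above 0. MED18 differed by 0.70 ± 0.19 and GTF2I by 0.70 ± 0.20. GTF2I had 6.20, 6.44, 5.90 and 6.58 at 5 min, 6.75, 7.74, 6.68 and 6.72 at 30 min, and 6.94, 6.76, 6.95 and 6.74 at 60 min, so its 5 min arrays were below all later ones. GTF2H1 clone 1, for the TFIIH core subunit p62, differed by -0.61 ± 0.22, and MED28 by -0.39 ± 0.17. TAF9, another histone-fold TAF, had 6.90, 7.18, 6.79 and 6.70 at 5 min, 6.50, 6.35, 6.70 and 6.56 at 30 min, and 6.52, 6.83, 6.16 and 6.25 at 60 min, a difference of -0.45 ± 0.17 for 60 min against 5 min (limma, adjusted p = 0.067).

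Between 60 and 30 min the clones of TAF11 and GTF3C2 described above were the 2 of 81 that passed (2.47%), both lower, where 3.15% of all spots passed, 3.1% lower and 0.0417% higher. The median difference was 0.03 both over the 81 clones and over all named clones. POLR1C differed by 0.46 ± 0.18 on the higher side, and POLR2I clone 1 by -0.27 ± 0.18 on the lower side.

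**Figure D4:**
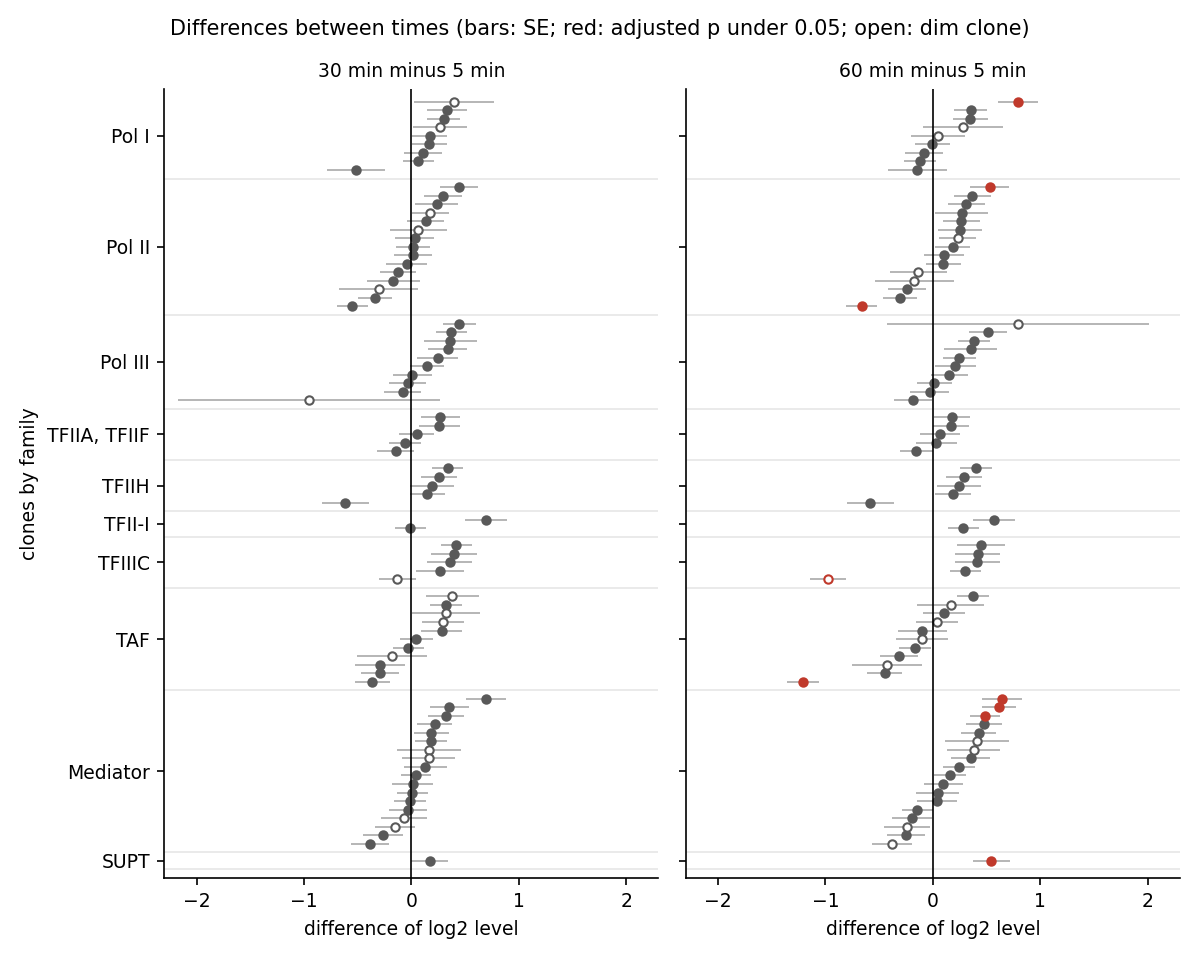
Difference of log2 level for 30 min against 5 min (left) and 60 min against 5 min (right) for each of the 81 clones, sorted within family, with bars of 1 SE, red for an adjusted p under 0.05 and open circles for dim clones. No clone passed on the left and 9 passed on the right, with TAF11 and the dim GTF3C2 clone 1 farthest below 0.

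By family, 4 of 5 TFIIIC clones and 4 of 5 TFIIH clones lay above 0 for 60 min against 5 min, with medians of 0.42 and 0.25, and both TFII-I clones did. Pol III had 8 of 10 above 0 (median 0.23), Mediator 13 of 18 (median 0.20) and Pol II 10 of 15 (median 0.18). These counts stand beside 57.0% of all named clones that were above 0. Pol I had 5 of 9 above 0, with a median of 0.05. The TAFs were the family whose median lay below 0, at -0.10 with 4 of 11 above 0, and that median turned to 0.20 with print block and position removed. Pol II turned to -0.02 under the same setting, and Pol I to -0.01 under normexp. Without a change of sign, the TFIIIC median was 0.13 (3 of 5 above 0) and that of Pol III 0.03 (6 of 10 above 0) with print block and position removed, and under normexp TFIIIC was at 0.15, Pol III at 0.08 and Mediator at 0.07. The 3 tail subunits of Mediator, MED15, MED16 and MED24, were all above 0, by 0.35 to 0.48, of which only MED16 passed. The 3 clones of SL1, the TAF complex of Pol I (TAF1A, TAF1B and TAF1D), ranged from -0.32 to 0.04. With print block and position removed, TAF1B turned to 1.01 and TAF1D to 0.52, both of which then passed. Under normexp TAF1A turned to -0.07.

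Of the 18 genes with more than 1 clone, the clones of 9 went the same way between 60 and 5 min and those of the other 9 did not. Both clones of GTF3C5, a TFIIIC subunit, differed alike, by 0.42 ± 0.21 and 0.45 ± 0.22, and both of POLR2D by 0.25 ± 0.20 and 0.27 ± 0.25, although POLR2D clone 2 turned below 0 with print block and position removed. The GTF2H1 clones differed by -0.58 ± 0.22 and 0.29 ± 0.17, and the POLR3C clones by -0.18 ± 0.17 and 0.38 ± 0.15. In no gene did more than 1 clone pass. For ActD the clones went the same way in 10 of the 18 genes, and for activity in 11.

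**Figure D5:**
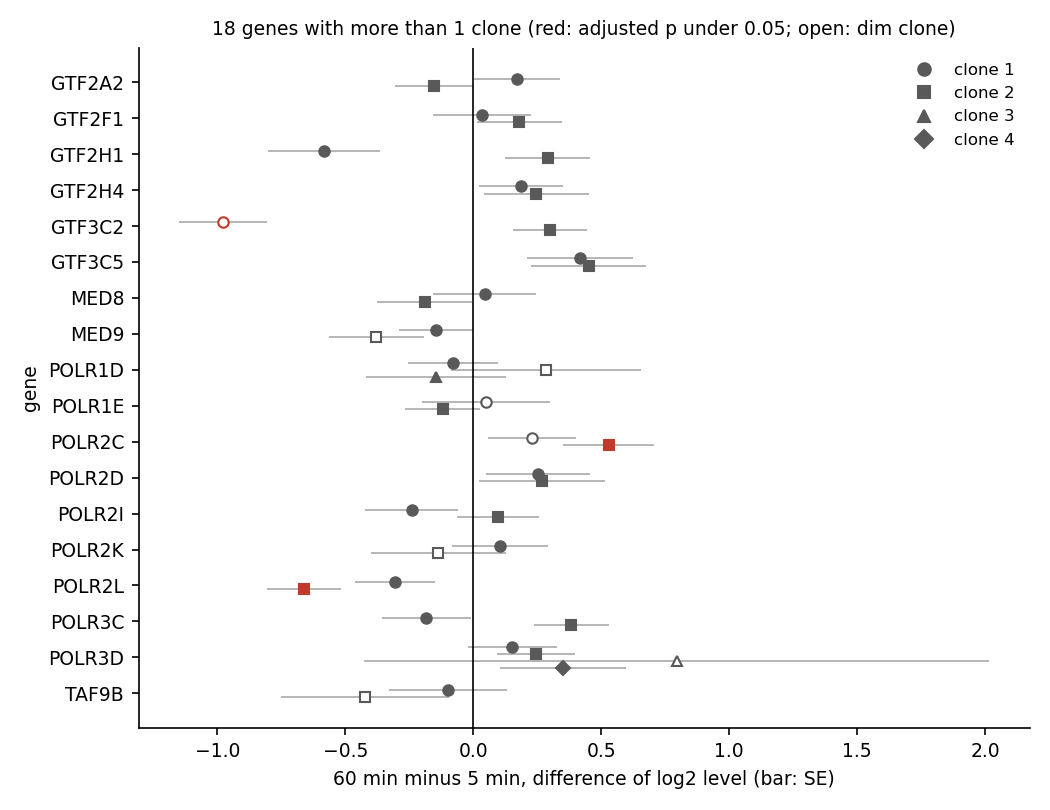
Difference of log2 level for 60 min against 5 min of every clone of the 18 genes with more than 1 clone, with bars of 1 SE, a symbol for each clone number, red for an adjusted p under 0.05 and open symbols for dim clones. The clones of GTF3C2 and GTF2H1 lie on opposite sides of 0, and those of GTF3C5 and POLR2D lie together.

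A list of other transcription machinery genes outside these names (TBP relatives, elongation and termination factors, kinases of the polymerase tail and SAGA subunits) had 43 of 79 genes measured, through 52 clones. No clone of it passed for ActD or for activity, with medians of -0.002 and -0.01. Between 60 and 5 min 3 were higher and 5 were lower of 52, with a median of 0.04, beside the 19.6% of all spots. CDC73, a subunit of the PAF1 elongation complex, was among those that fell, by 1.09 ± 0.20 on the log2 scale (adjusted p = 0.00125). ELOC had the lowest difference of the list, at -1.54 ± 0.19 (limma, adjusted p = 3.53e-05). A clone of TADA2A differed by -1.14 ± 0.17 (adjusted p = 1.73e-04), whereas the other clone of TADA2A differed by 0.30 ± 0.19 and did not pass.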

How the data were processed

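Total RNA of the 12 conditions was labelled radioactively and hybridized to nylon arrays of human cDNA clones. Rat transcripts were thus read through human sequence, and related genes may cross-hybridize. The authors deposited raw spot intensity values on a linear scale, read from phosphor screens, and not yet brought to a common scale. The value table of the series was 100% identical, and 0 columns of other samples were set aside. Spots were named through the platform annotation by their first index, 8496 with 1 symbol, 21 with several and 1083 unnamed here. Spots with several symbols were left out. Of the 60 genes, 59 have a rat gene of the same symbol in RefSeq. The counting depth of a spot has no meaning here, and the number of arrays limits the precision.

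Log2 intensities were z-scored per array, as in the study, then brought back to log2 units with the average array SD (1.75) and the grand mean (5.56). The tests used limma 3.58.1 under R 4.3.3 (lmFit, eBayes with intensity trend, two-sided) on all 9600 spots, with Benjamini-Hochberg adjustment over all spots and a threshold of 0.05. Covariates were time and the other treatment. Clones in the dimmest 25% of named clones (geometric mean intensity under 29.1) are called dim. Position 25 of each print block (384 spots) was taken as blank. The fit was also run on simulated arrays with independent noise and known changes, larger than most differences reported here. That run does not speak to smaller differences or to the effect of array order. Alternatives were quantile normalization, median centring, normexp, removal of print block and position medians, bright clones only, no blank or placeholder spots, no intensity trend and leaving out each array. Named clones were the 3 of smallest p in each direction among clones that were not dim, those that passed or were co-regulated, defining subunits, genes with several clones and the brightest of each family. The members, lists and groupings were chosen with earlier results of these data known.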

Additional observations from a re-analysis of the deposited data

Results flagged for a closer look

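In 5 of the 81 clones (6.17%) the BiC/4AP against Block difference had one sign with ActD at all 3 times and the opposite sign without it at all 3 times, with 1 pair of arrays each, beside 284 of 8496 named clones (3.34%). Signs that were opposite at each time, in whichever order, were found in 9 of the 81 clones (11.1%) and in 9.11% of named clones. The difference between the effects is given by the interaction, which passed for none of them (limma, adjusted p = 0.999). GTF2A2 clone 1, for the small TFIIA subunit, had an interaction of 0.49, with pairs of 0.02 to 0.19 with ActD and -0.75 to -0.05 without. POLR3D clone 2 had 0.36, with pairs of 0.10 to 0.24 with ActD and -0.24 to -0.13 without. The dim MED20 had 1.15, with pairs of 0.13 to 0.67 with ActD and -1.25 to -0.31 without. POLR1D clone 1 had -0.51, with pairs of -0.37 to -0.11 with ActD and 0.11 to 0.44 without. POLR2L clone 2 had -0.34, with pairs of -0.19 to -0.07 with ActD and 0.11 to 0.25 without.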

How the results depend on the processing

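The count of clones that passed between 60 and 5 min was 9 in the setting reported, 21 under normexp and 5 to 15 when 1 array was left out. The lowest came without the 5 min BiC/4AP array and the highest without the 30 min BiC/4AP array. The share of all spots that passed was 19.6%, 33.2% and 12.4% to 24.4% in those settings. Between 60 and 30 min it was 2, against 4 under quantile normalization, 1 among bright clones only, since the dim GTF3C2 clone was then not tested, and 2 to 5 with 1 array left out, where 3.15%, 5.23%, 4.8% and 2.2% to 8.03% of all spots tested passed. Within 30 min, 0 clones passed for activity and for ActD, against up to 8 without the 30 min BiC/4AP + ActD array and up to 5 without the 30 min Block array. The median of the 81 clones for 30 min against 5 min was 0.145, against 0.0849 under quantile normalization, 0.0499 under normexp and 0.0750 with print block and position removed. For 60 min against 5 min it was 0.172, against 0.109 under median centring and 0.0566 under normexp. With 1 array left out the median ran from -0.0582 to -0.0133 for ActD and from -0.0184 to 0.0360 for 60 min against 30 min. With print block and position removed, POLR2L clone 2 turned to 0.0519 for 30 min against 5 min and to 0.244 for 60 min against 5 min. With the SD taken over bright clones only, 2, 3 and 3 clones were co-regulated at 5, 30 and 60 min (3.97%, 3.47% and 4.31% of all spots), and under quantile normalization 0 were at 30 min. The cause of these changes was not tested. Counted over clones, comparisons and settings, the named clones kept direction and call 754 times, lost a call 31 times, gained one 9 times and turned direction 2 times. A clone that did not pass and stayed so counts as kept. The clones counted were named for small p, for passing or for co-regulation, so the tally does not stand for the other clones of the machinery.

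No analysis paired by replicate was possible because all 12 arrays carry the same replicate number. Pairs in the text are arrays matched by time and arm, not replicates. No condition was repeated, so each test measures the spread between arms and times, and a p that misses the threshold does not show that values did not differ. Spots of 1 accession did not track each other.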
